A study of Mus musculus with 3 samples.

Results

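Wnt proteins are secreted lipid-bearing signals that bind Frizzled receptors and, in the branch that acts through beta-catenin, the co-receptors Lrp5 and Lrp6. Binding halts a destruction complex built on Axin, so that beta-catenin accumulates and acts with Lef1 and Tcf proteins on target genes, while secreted antagonists either catch the ligand (Sfrp proteins, Wif1) or occupy the co-receptors (Dkk1). In the mouse kidney the ureteric bud sends Wnt signals that turn the surrounding mesenchyme into nephrons, and the stalk of the bud sends another that shapes the medulla. The genes described here are these ligands, receptors, antagonists and intracellular factors. They were taken by gene symbol, by a rule that uses no measured value: Wnt, Fzd, Sfrp and Dkk genes followed by a number, with Lrp5, Lrp6, Wif1, Axin1, Axin2, Lef1, Tcf7, Tcf7l1, Tcf7l2 and Ctnnb1, leaving out Wnt4 and Wnt11. The array carried 43 features for 41 such genes, and 40 genes had a value on all 3 arrays, out of 19015 rows measured in all. They comprised 16 ligands, 10 receptors, 8 antagonists and 6 factors inside the cell. Lrp6 had a feature but no value on any array, and Dkk4, Fzd10, Tcf7 and Wnt9a had no feature under that symbol alone and were not analysed here. One further feature named Wnt2 together with other genes and was left out.

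Fetal kidneys taken 13.5 days post coitum (dpc) were compared with metanephroi, the rudiments of the permanent kidney, taken at 11.5 dpc. All tissue was microdissected from CD1 mouse embryos and pooled over both sexes. Amplified RNA of the 2 ages shared each of 3 two-colour Compugen oligonucleotide arrays, with 13.5 dpc in channel 2 and 11.5 dpc in channel 1. Per the labels the dye order was red/green for arrays 1 and 2 but green/red for array 3. Whether the arrays had RNA extracts of their own is not stated in the labels. The p-values therefore reflect spread between arrays that may be technical.

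Every value is a log2 ratio that likely has 11.5 dpc on top, since the labels write 11.5 before 13.5 beside red/green and place 11.5 dpc in channel 1. A negative value is therefore read as higher at 13.5 dpc, and a positive value as lower at 13.5 dpc. This reading is likely but not settled, and if it fails each sign below means the opposite. Over all rows the medians on arrays 1, 2 and 3 were 0.012, 0.064 and -0.091, and the standard deviations 0.56, 0.75 and 0.93. Arrays 1 and 2 correlated at 0.27 across rows, arrays 1 and 3 at 0.12 and arrays 2 and 3 at -0.12 (Pearson; 0.36, 0.13 and 0.0010 by Spearman); genes are not independent replicates. Over the 40 Wnt genes the Pearson values were 0.38, 0.16 and 0.12. Among red blood cell genes, 2 with large ratios, chosen after their values were seen, had the same sign and a similar size on all arrays as deposited. Ermap had 3.39, 3.80 and 3.35 on arrays 1, 2 and 3, and Klf1 had 1.99, 2.42 and 2.12. Of the 12 red blood cell genes measured, 9 were positive on every array and 3 had mixed signs. These 3 were Gata1 (-1.54, -0.72 and 0.059), Slc4a1 (-0.70, -0.34 and 0.091) and Epor (-0.14, 0.19 and 0.27). Genes chosen after their values were seen cannot settle the orientation of array 3. Array 3 was used as deposited, and values with its sign turned are given as an alternative because its dye order differed. The ratios carry no signal level. Presence of a gene, background and saturation could not be assessed, and fewer cells of a type and less RNA per cell cannot be told apart.

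The antagonist genes Sfrp4 and Dkk1 and the ligand gene Wnt7b had the most negative mean ratios among the Wnt genes, in the sense of higher at 13.5 dpc. Fzd9 and the feedback gene Axin2 had smaller negative means, with the antagonist gene Wif1 between them but spread widely over the arrays, and the co-receptor gene Lrp5 and the repressor gene Tcf7l1 had the most positive ones. No gene passed limma's adjusted threshold: 0 of the 40 had an adjusted p under 0.05, against 0% of all rows, and the smallest adjusted p was 0.405, for Dkk1. At an unadjusted limma p under 0.05 there were 7 genes, against 9.24% of all rows. Of these, 5 were negative (12.5% of the 40, against 5.07% of all rows) and 2 positive (5%, against 4.17%). The ordinary one-sample statistic, without pooling of variances, passed 0 after adjustment and 7 before it, not the same genes as limma. Sfrp4, Wnt7b and Axin2 were above 0.05 by that statistic (unadjusted p = 0.0698, 0.0670 and 0.0597, beside limma's values below), and Sfrp1, Fzd2 and Lef1 came under it. Limma's 7 became 3 without array 1, 3 without array 2, 3 without array 3 and 1 with the sign of array 3 turned. Over all 19015 rows the count went from 1757 to 736, 1020, 2346 and 1252 in those settings, in that order.

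Across the 40 genes, 17 kept 1 sign on all arrays, against 35.3% of all rows. It was negative for 11 genes (27.5%, against 18.5% of all rows) and positive for 6 (15%, against 16.8%). Without array 3, 28 genes kept 1 sign on the other arrays, 13 of them positive, with fewer arrays having to meet the rule. With array 3 turned 11 did, 4 of them negative. The share of all rows was not counted in these settings, so these counts cannot be read as particular to the set. No gene was at least 2-fold different with the same sign on every array, a pattern that 0.684% of all rows had. Sfrp4 came closest, short of it on array 3, where its log2 ratio was -0.97. On arrays 1 and 2 alone, Sfrp4 and Dkk1 met it, and how many of all rows did so there was not counted. The median of the 40 means was -0.096, beside -0.0084 for all rows. It was 0.016 with the sign of array 3 turned and 0.0016 after a running median along the table was subtracted, so the set as a whole has no settled direction.

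**Figure D1:**
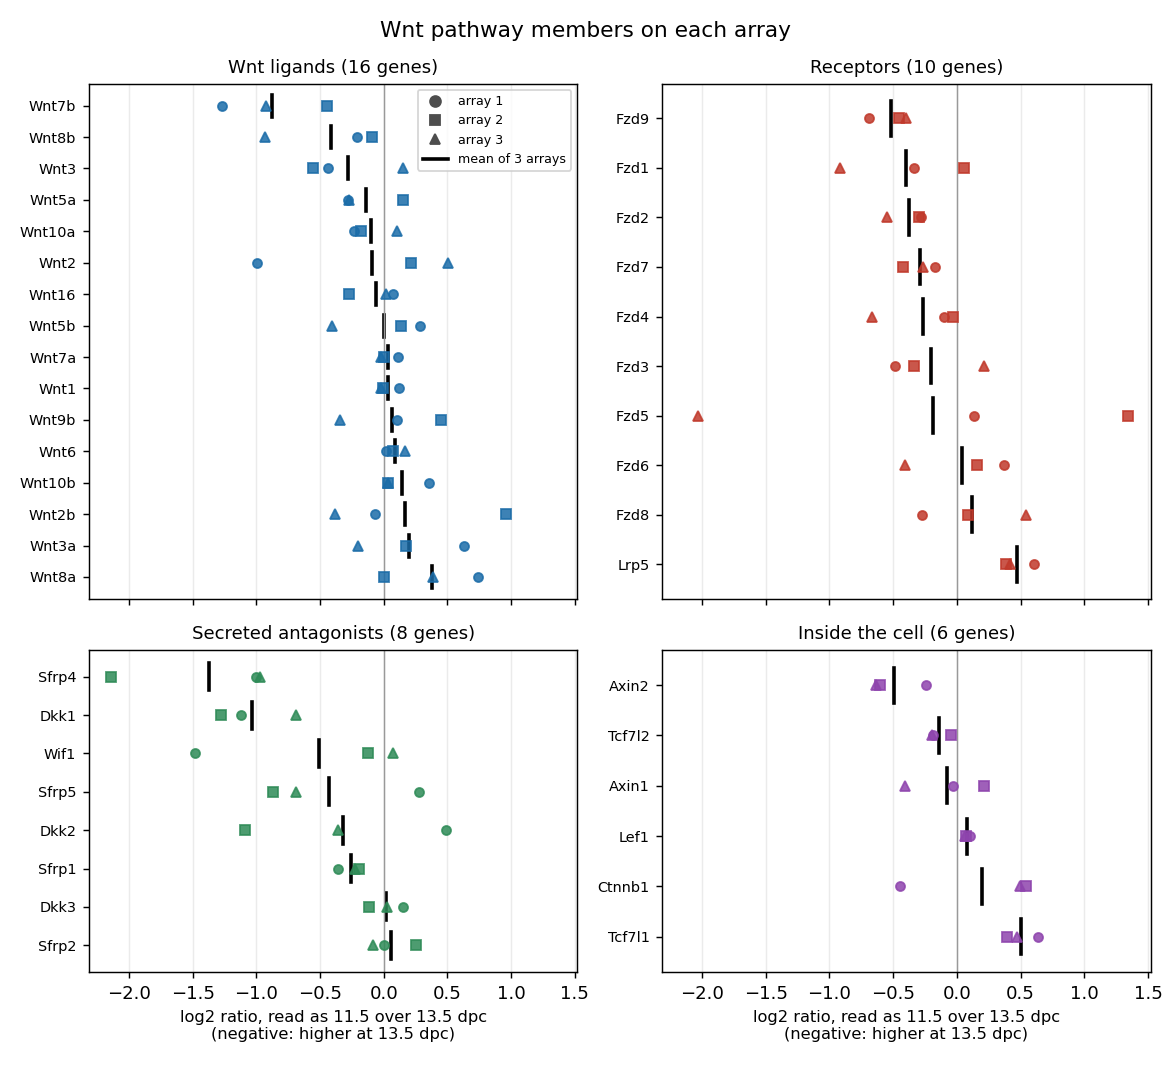
Log2 ratio of each of the 40 genes on arrays 1 (circle), 2 (square) and 3 (triangle), with the mean as a black bar, in panels for 16 ligands, 10 receptors, 8 antagonists and 6 factors inside the cell; negative values, to the left, are read as higher at 13.5 dpc. Sfrp4, Dkk1 and Wnt7b lie left of 0 on every array, and Fzd5 runs from -2.04 on array 3 to 1.35 on array 2.

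Among the 16 ligand genes, Wnt7b, whose protein is made by the stalk of the ureteric tree and is needed for the renal medulla, stood lowest. Its log2 ratios were -1.27, -0.44 and -0.92 on arrays 1, 2 and 3, negative on each. The mean was -0.88 ± 0.42 (SD, n = 3 arrays), a 1.84-fold ratio with a 95% interval of -1.49 to -0.27 (limma, unadjusted p = 0.0160, adjusted p = 0.496). Only 2.87% of all rows had a mean as low or lower. Without array 1 or array 3 its unadjusted limma p was above 0.05 (0.0811 and 0.0552, adjusted p = 0.951 and 0.405). Turning the sign of array 3 brought the mean to -0.26.

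Within the 40 genes, the other ligands with known roles in the early kidney gave no such pattern. Wnt4 and Wnt11, left out by the rule, are given below with the other pathway genes. Wnt4 was negative on every array and Wnt11 had mixed signs. Wnt9b, the stalk signal that induces nephrons, had 0.10, 0.45 and -0.34 on arrays 1, 2 and 3 (mean 0.069 ± 0.40), with arrays on both sides of 0. Its mean was -0.12 without array 2. Wnt6, made by the ureteric bud, had 0.021, 0.075 and 0.17, a mean of 0.089 ± 0.075, which is small but positive on each array as deposited. Wnt5a, a mesenchymal ligand that often acts without beta-catenin, had -0.28, 0.15 and -0.27. Wnt2b, a ligand of the kidney stroma, had -0.065, 0.96 and -0.38, so its positive mean of 0.17 came from array 2 alone and was -0.22 without it.

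These intervals leave room for sizeable differences in either direction: the 95% interval was -0.53 to 0.66 for Wnt9b, -0.32 to 0.49 for Wnt6, -0.62 to 0.35 for Wnt5a and -0.71 to 1.05 for Wnt2b. Wnt2, a ligand best known from lung development, spread most among the ligands, with -0.99 on array 1 against 0.22 and 0.51 on arrays 2 and 3. Wnt8a had 0.74, 0.0058 and 0.39 and the highest ligand mean, 0.38 ± 0.37. Wnt8b had -0.21, -0.094 and -0.94, with the same negative sign throughout but a mean of -0.41 set largely by array 3. The other 8 ligand genes, Wnt1, Wnt3, Wnt3a, Wnt5b, Wnt7a, Wnt10a, Wnt10b and Wnt16, had means from -0.28 (Wnt3) to 0.20 (Wnt3a).

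By sign, 2 of the 16 ligands were negative on all arrays (Wnt7b and Wnt8b), 3 positive (Wnt6, Wnt8a and Wnt10b) and 11 mixed. The ligand median was 0.017, near the -0.0084 of all rows, and it changed sign without array 1 (-0.013), without array 2 (-0.062) and with a dye term (-0.0087). Several ligand genes are chromosomal neighbours with no protein-coding gene between them in the mouse gene table. Of these pairs, Wnt6 and Wnt10a had means of 0.089 and -0.10, Wnt9b and Wnt3 had 0.069 and -0.28, and Wnt10b and Wnt1 had 0.14 and 0.032. Wnt7b is in none of these pairs.

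Of the 9 Frizzled genes, which encode the cell-surface receptors for Wnt, 7 had a negative mean, beside 9682 of all 19015 rows. The 4 genes Fzd2, Fzd4, Fzd7 and Fzd9 were negative on all 3 arrays, as were 18.5% of all rows, while none was positive on all. Fzd9 had -0.69, -0.45 and -0.40, a mean of -0.51 ± 0.15 with a 95% interval of -0.94 to -0.083 (limma, unadjusted p = 0.0295, adjusted p = 0.524). All its values lay close together, yet its p was above 0.05 without array 1 (0.153) or array 2 (0.105), and also once a running median along the table had been subtracted (0.0903, mean -0.31). The closely related receptors Fzd1, Fzd2 and Fzd7 had means of -0.40, -0.38 and -0.29. Fzd2 had -0.28, -0.30 and -0.55 and Fzd7 had -0.17, -0.42 and -0.27, while Fzd1 had -0.33, 0.054 and -0.92 and became positive (0.21) with array 3 turned.

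Fzd4, a receptor also known for its part in blood vessel growth, had -0.10, -0.028 and -0.67, so its negative mean of -0.27 rests largely on array 3. The relatives Fzd3 and Fzd6 had -0.20 ± 0.37 and 0.041 ± 0.40. The pair Fzd5 and Fzd8 had -0.18 ± 1.71 and 0.12 ± 0.41. Fzd5 had 0.14, 1.35 and -2.04, the widest spread of any of the 40 genes; arrays 2 and 3 lay on opposite sides of 0 by more than 2-fold each. With array 3 turned, Fzd5 had a mean of 1.17 and was the single member of the set under an unadjusted p of 0.05 (limma, unadjusted p = 0.0425, adjusted p = 0.757). Without array 3 its mean was 0.74.

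Of the 9 Frizzled means 7 were negative, while those of Fzd6 and Fzd8 were positive. Lrp5, the co-receptor of the beta-catenin branch, was positive on every array, with 0.61, 0.38 and 0.42 on arrays 1, 2 and 3. Its mean of 0.47 ± 0.12 is read as 1.38-fold lower at 13.5 dpc (95% interval 0.052 to 0.89, limma unadjusted p = 0.0355, adjusted p = 0.534). Its p was above 0.05 whichever array was left out (0.0660 to 0.172), and its mean was 0.19 with array 3 turned. The median of the 10 receptors was -0.23, and it was 0.085 with array 3 turned. By array the receptor median was -0.22, 0.013 and -0.40, so array 2 did not share the negative direction.

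**Figure D2:**
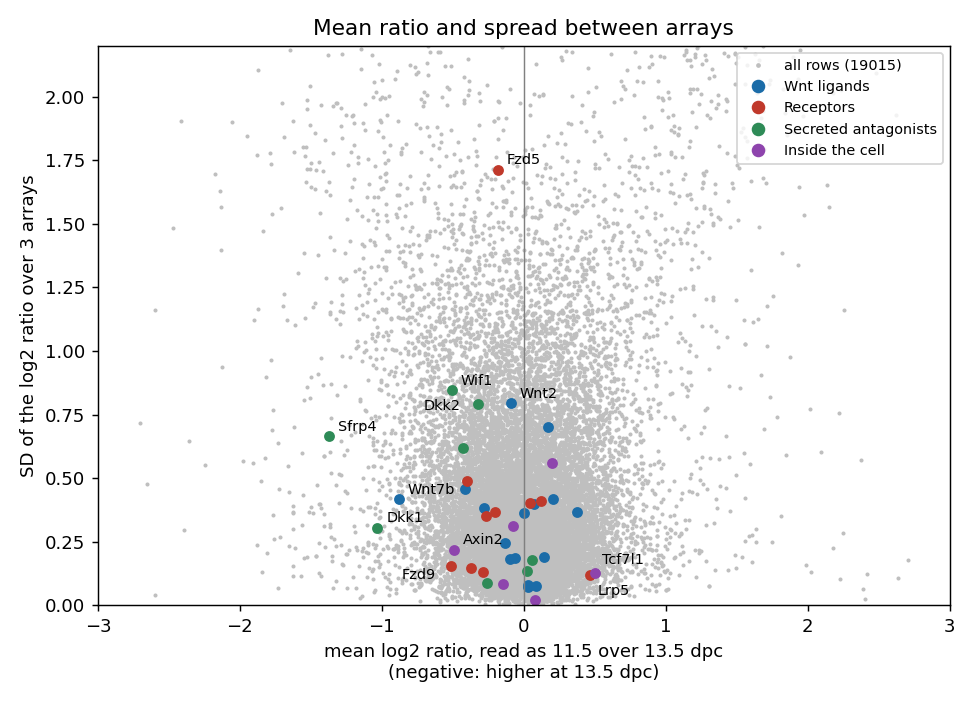
Mean log2 ratio (horizontal) against its standard deviation over 3 arrays (vertical) for all 19015 rows in grey and the 40 genes in colour by class; 417 rows lie outside the frame. Sfrp4 (-1.37), Dkk1 (-1.03) and Wnt7b (-0.88) stand furthest left among the 40 genes. Of all rows, 0.794%, 1.95% and 2.87% had a mean as low as theirs or lower. Fzd9, Axin2, Lrp5 and Tcf7l1 stand out less by mean and have small spreads, and Fzd5 has the largest spread of the set at 1.71.

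The secreted antagonists had a median of -0.37 over 8 genes, and by array -0.18, -0.53 and -0.29. That lay below the receptor median with all arrays, but above it on arrays 1 and 3, and without array 2 the medians were -0.25 for antagonists and -0.30 for receptors. Sfrp4, a secreted protein with the Wnt-binding domain of a Frizzled receptor, had -1.01, -2.14 and -0.97. Each array put it at about 2-fold or more in the direction of higher at 13.5 dpc. The mean was -1.37 ± 0.66, a 2.59-fold ratio with a 95% interval of -2.22 to -0.53 (limma, unadjusted p = 0.0105, adjusted p = 0.471). Of all rows, 0.794% had a mean as low or lower. Without array 1, 2 or 3 the mean was -1.56, -0.99 and -1.57, and the unadjusted p stayed under 0.05 each time (0.0315, 0.0177 and 0.0205). With array 3 turned the mean was -0.72 and the unadjusted limma p 0.317.

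Dkk1, whose protein binds Lrp5 and Lrp6 and so blocks the beta-catenin branch, had -1.12, -1.28 and -0.69 on arrays 1, 2 and 3. The arrays lay closer together than for Sfrp4. Its mean was -1.03 ± 0.30, a 2.04-fold ratio with a 95% interval of -1.55 to -0.51 (limma, unadjusted p = 0.00528, adjusted p = 0.405). Its unadjusted p stayed under 0.05 whichever array was left out (0.00528 to 0.0397), but it was 0.279 with array 3 turned, when the mean was -0.57. Among the 40 genes, Sfrp4 and Dkk1 were the pair at least 1.5-fold different with the same sign on every array. The share of all rows that met this at 1.5-fold was not counted.

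The other members of both families did not share this size. Dkk2 had 0.49, -1.09 and -0.36 and Dkk3, a relative that is not known to act like Dkk1, had 0.15, -0.12 and 0.029. Sfrp5 had 0.28, -0.87 and -0.69, and Sfrp2 had 0.0029, 0.26 and -0.085, both with mixed signs. Sfrp5 was at an unadjusted limma p of 0.0434 without array 1 (mean -0.78, adjusted p = 0.951), and Dkk2 had a mean of 0.064 without array 2. Wif1, a ligand-binding antagonist unrelated to the Sfrp family, had -1.48 on array 1 but -0.12 and 0.076 on arrays 2 and 3, so its mean of -0.51 ± 0.85 was carried by 1 array.

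Sfrp1, which is made in the kidney stroma, was measured by 2 features. One had -0.062, -0.17 and -0.47 and the other -0.65, -0.21 and 0.021, so their means (-0.23 and -0.28) were alike although the order of the arrays was opposite. Averaged, Sfrp1 had -0.36, -0.19 and -0.22, which makes its small spread of 0.088 a product of the averaging. Tcf7l2 was the other gene with 2 features: 0.13, 0.0014 and -0.10 on one, and -0.51, -0.094 and -0.29 on the other. Its averaged mean of -0.14 was negative on all arrays although one feature had mixed signs.

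**Figure D3:**
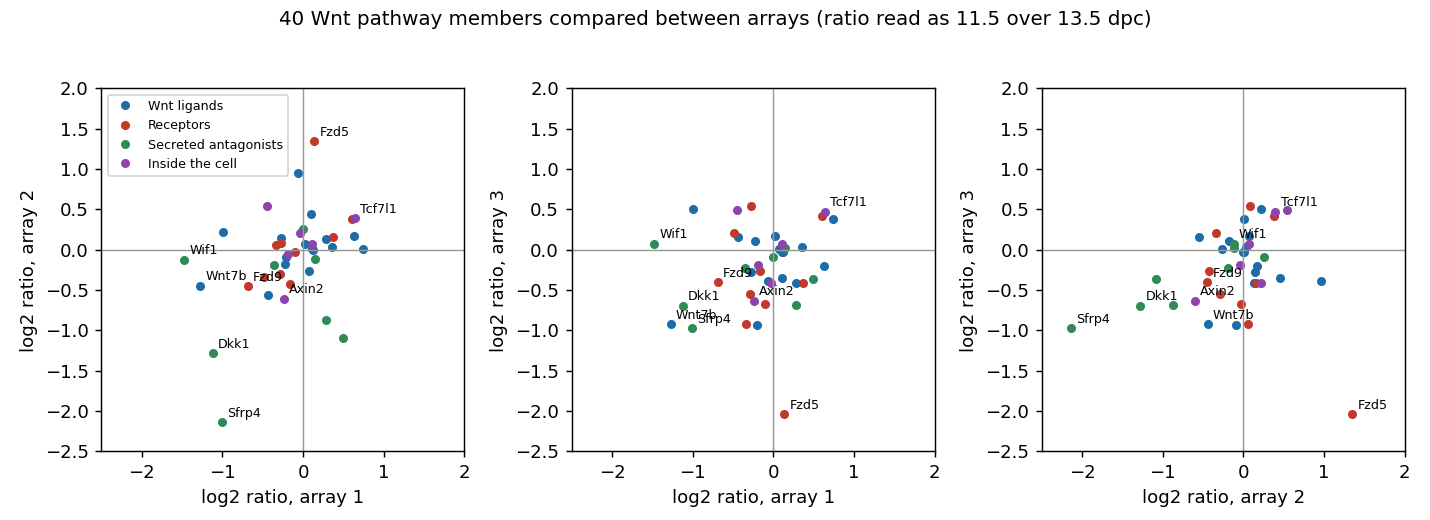
Log2 ratios of the 40 genes on array 2 against array 1, array 3 against array 1 and array 3 against array 2, coloured by class. Sfrp4, Dkk1, Wnt7b, Fzd9 and Axin2 lie in the lower left of each panel and Tcf7l1 in the upper right; Wif1 is far from 0 on array 1 alone, and Fzd5 lies at 1.35 on array 2 and -2.04 on array 3.

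Inside the cell, Axin2 and Tcf7l1 lay on opposite sides. Axin2, a scaffold of the destruction complex and a widely used target gene of beta-catenin, had -0.24, -0.61 and -0.63. The mean was -0.49 ± 0.22 (95% interval -0.96 to -0.028, limma unadjusted p = 0.0421, adjusted p = 0.539). Its unadjusted p was above 0.05 whichever array was left out (0.0702 to 0.180), and its mean was -0.26 after the running median and -0.072 with array 3 turned. Axin1, the more evenly expressed relative, had -0.034, 0.21 and -0.41.

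Tcf7l1, a Tcf protein that mostly represses targets when beta-catenin is absent, had 0.64, 0.40 and 0.47 on arrays 1, 2 and 3. Its mean of 0.50 ± 0.13 is read as 1.42-fold lower at 13.5 dpc (95% interval 0.082 to 0.92, limma unadjusted p = 0.0293, adjusted p = 0.524). Its p was above 0.05 whichever array was left out (0.0612 to 0.150), and its mean was 0.19 with array 3 turned. Lef1, the factor that mostly activates targets, had 0.11, 0.072 and 0.068, the smallest spread of the 40 genes, with a 95% interval of -0.31 to 0.48. Ctnnb1, the gene of beta-catenin itself, had -0.45 on array 1 against 0.54 and 0.49 on arrays 2 and 3. The arrays thus disagreed on its sign, and the mean was 0.20 ± 0.56, or -0.13 with array 3 turned. The class of 6 had a median of 0.0025, which was -0.014 without array 1 and -0.085 without array 2.

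**Figure D4:**
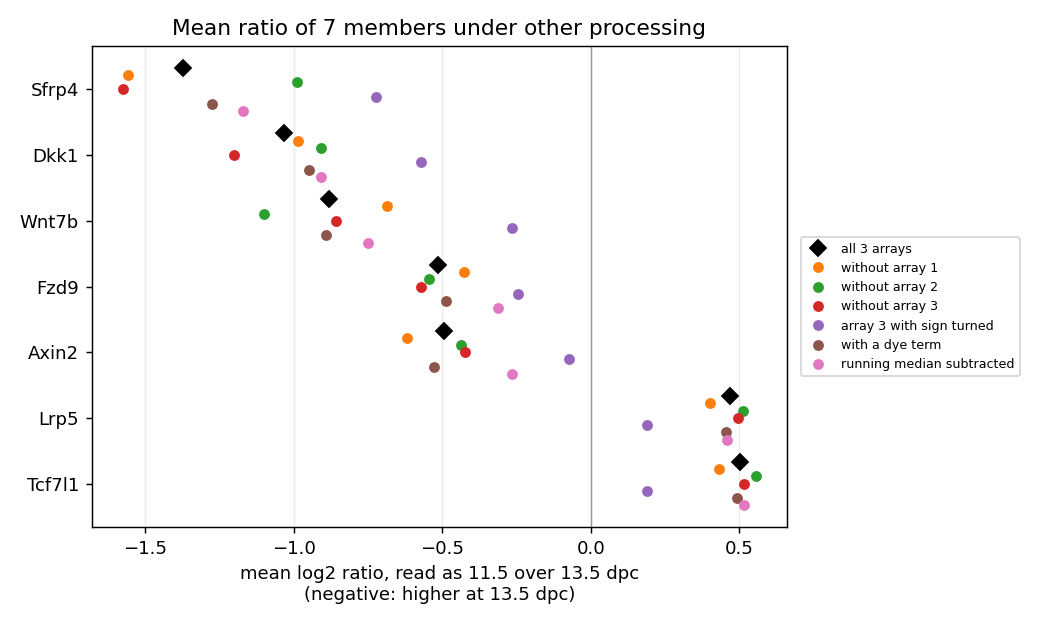
Mean log2 ratio of the 7 genes at an unadjusted limma p under 0.05, with all 3 arrays (black diamond) and without 1 array, with the sign of array 3 turned, with a dye term or after a running median (coloured points); negative values, to the left, are read as higher at 13.5 dpc. No mean crosses 0, and turning array 3 brings each closest to it, with Axin2 at -0.072 and Sfrp4 at -0.72.

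The promoter sequences of Dkk1, Axin2, Fzd7 and Tcf7l1 are shown. Dkk1 and Axin2 are known targets of beta-catenin. Fzd7 is an example of a receptor with negative ratios and Tcf7l1 of a nuclear factor with positive ratios. All of these kept the same sign on every array, but other genes of the set did so too. Each is the RefSeq window of 300 bases on GRCm38.p6, from 250 bases before the start of the gene to 50 after it, 5′ to 3′ on the strand of the gene. Capitals mark CTTTGA or CTTTGT on either strand (TCAAAG or ACAAAG on the other), the letters of the site that Lef1 and Tcf proteins bind; these motifs do not overlap one another here. The windows are chr19:30549447-30549746 (minus strand) for Dkk1, chr11:108920099-108920398 (plus strand) for Axin2, chr1:59481897-59482196 (plus strand) for Fzd7 and chr6:72788996-72789295 (minus strand) for Tcf7l1.
Dkk1: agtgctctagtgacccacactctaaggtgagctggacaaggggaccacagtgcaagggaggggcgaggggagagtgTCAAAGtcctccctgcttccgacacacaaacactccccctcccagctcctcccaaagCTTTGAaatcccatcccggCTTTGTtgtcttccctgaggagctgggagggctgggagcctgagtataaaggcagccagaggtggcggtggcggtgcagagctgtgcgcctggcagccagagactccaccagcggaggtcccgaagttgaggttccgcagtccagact
Axin2: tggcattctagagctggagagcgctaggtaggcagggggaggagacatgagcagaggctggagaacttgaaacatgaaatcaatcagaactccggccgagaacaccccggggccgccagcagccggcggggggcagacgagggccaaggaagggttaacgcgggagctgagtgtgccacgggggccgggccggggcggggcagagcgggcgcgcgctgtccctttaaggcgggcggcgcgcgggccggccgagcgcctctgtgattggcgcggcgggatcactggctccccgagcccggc
Fzd7: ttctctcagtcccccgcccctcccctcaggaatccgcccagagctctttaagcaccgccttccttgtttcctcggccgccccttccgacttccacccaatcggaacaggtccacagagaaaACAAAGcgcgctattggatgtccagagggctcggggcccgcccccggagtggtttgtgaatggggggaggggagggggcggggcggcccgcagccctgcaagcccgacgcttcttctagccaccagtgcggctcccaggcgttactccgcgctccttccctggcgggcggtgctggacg
Tcf7l1: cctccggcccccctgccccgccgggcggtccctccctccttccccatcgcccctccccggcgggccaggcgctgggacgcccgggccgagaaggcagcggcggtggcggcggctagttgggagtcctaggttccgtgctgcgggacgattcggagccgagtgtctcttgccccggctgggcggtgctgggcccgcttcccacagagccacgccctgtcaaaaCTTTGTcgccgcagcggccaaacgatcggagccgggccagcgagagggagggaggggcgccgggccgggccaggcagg
The Dkk1 window held 3 matches, which began 174, 117 and 98 bases before the start. Fzd7 held 1, beginning 129 bases before the start, and Tcf7l1 held 1, beginning 28 bases before it. The windows of Fzd4 and Fzd9, receptors also negative on every array but not shown, held 0 matches each. Fzd2, negative on every array too, had no window, and Fzd1, with a negative mean but mixed signs, held 2 matches. The Fzd7 window is therefore an example only, and these few windows cannot show what is typical of the negative receptors. The Axin2 window held no match, which says only that these letters are not in these 300 bases. One or both motifs were in 31.2% of all 32851 promoter windows and in 10 of 34 windows (29.4%) of 27 genes of the set. Some genes of the set, Sfrp4, Wnt7b, Lrp5 and Fzd2 among them, had no entry in the promoter sequences and were not searched. Windows of the set on a single chromosome were also left out of the 34, a step not taken for the share over all windows. The matches are a description and not a site shown to be bound.

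Other genes of the pathway were taken from a list of 65 symbols, of which 55 had values. None passed limma's adjusted threshold (0 of 55, smallest adjusted p 0.359), and 10 were at an unadjusted p under 0.05, with 8 negative (14.5%, against 5.07% of all rows) and 2 positive (3.64%, against 4.17%). The same sign on all arrays was negative for 20 (36.4%, against 18.5% of all rows) and positive for 6 (10.9%, against 16.8%). The median of the list was -0.19, and between -0.31 and -0.14 on single arrays. The count of 10 was 4 without array 1, 4 without array 2, 12 without array 3 and 3 with array 3 turned. Over all rows the count of 1757 became 736, 1020, 2346 and 1252 in those settings.

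Feedback genes that the beta-catenin branch is known to switch on did not all lie on one side. Lgr5, an R-spondin receptor, had -0.87, -1.21 and -1.06 (mean -1.05 ± 0.17, limma unadjusted p = 0.00266, adjusted p = 0.359). Notum, an enzyme that inactivates Wnt ligands, had -0.63, -0.60 and -0.51, and Nkd1, an inhibitor inside the cell, had -0.72, -0.14 and -0.66 (unadjusted p = 0.0582). All 3 were negative on every array, as were Axin2 and Dkk1. Rnf43, a ubiquitin ligase that removes Frizzled receptors, was positive on every array with 0.34, 0.52 and 0.83, and Lef1 stayed near 0. This group was put together after its values were seen.

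Rspo3, a secreted R-spondin that strengthens Wnt signals and is made by stroma and nephron progenitors of the kidney, had 0.93, 0.73 and 0.31 (mean 0.66 ± 0.31, limma unadjusted p = 0.0260, adjusted p = 0.516). It lay opposite to its receptor gene Lgr5. Its relative Rspo2 had 1.15 and 1.14 on arrays 1 and 2 but -0.87 on array 3, and Rspo1 and Rspo4 had means of -0.029 and -0.29. Of the antagonists outside the Sfrp and Dkk families, Sostdc1, which binds Lrp co-receptors, had -0.53, -0.82 and -0.97 (mean -0.77 ± 0.23). The Dkk-like gene Dkkl1 had -0.95, -0.82 and -0.27. Frzb, a relative of the Sfrp genes, had -1.67 on array 1 but 0.30 and -0.042 on arrays 2 and 3.

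Celsr1, an adhesion receptor of the planar polarity branch, which works without beta-catenin, had -0.73, -0.87 and -1.03 (mean -0.88 ± 0.15, limma unadjusted p = 0.00463, adjusted p = 0.397). Prickle1, a cytoplasmic protein of that branch, had -0.73, -0.36 and -1.69, and its mean was 0.20 with array 3 turned. Turning array 3 also brought Lgr5 to -0.34, Wnt4 to -0.080, Celsr1 to -0.19, Sostdc1 to -0.12, Dkkl1 to -0.50, Dvl1 to -0.051, Notum to -0.24, Rspo3 to 0.45 and Rnf43 to 0.0082. The polarity genes Celsr3, Vangl2 and Prickle2 had mixed signs. Dvl1, the Dishevelled protein that serves both branches, had -0.41, -0.58 and -0.83 (mean -0.60 ± 0.21), while Dvl2 and Dvl3 had -0.15 and -0.16. Among the ligands left out of the 40, Wnt4 had -0.76, -0.89 and -1.41 and Wnt11 had -0.18, -0.14 and 0.047.

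**Figure D5:**
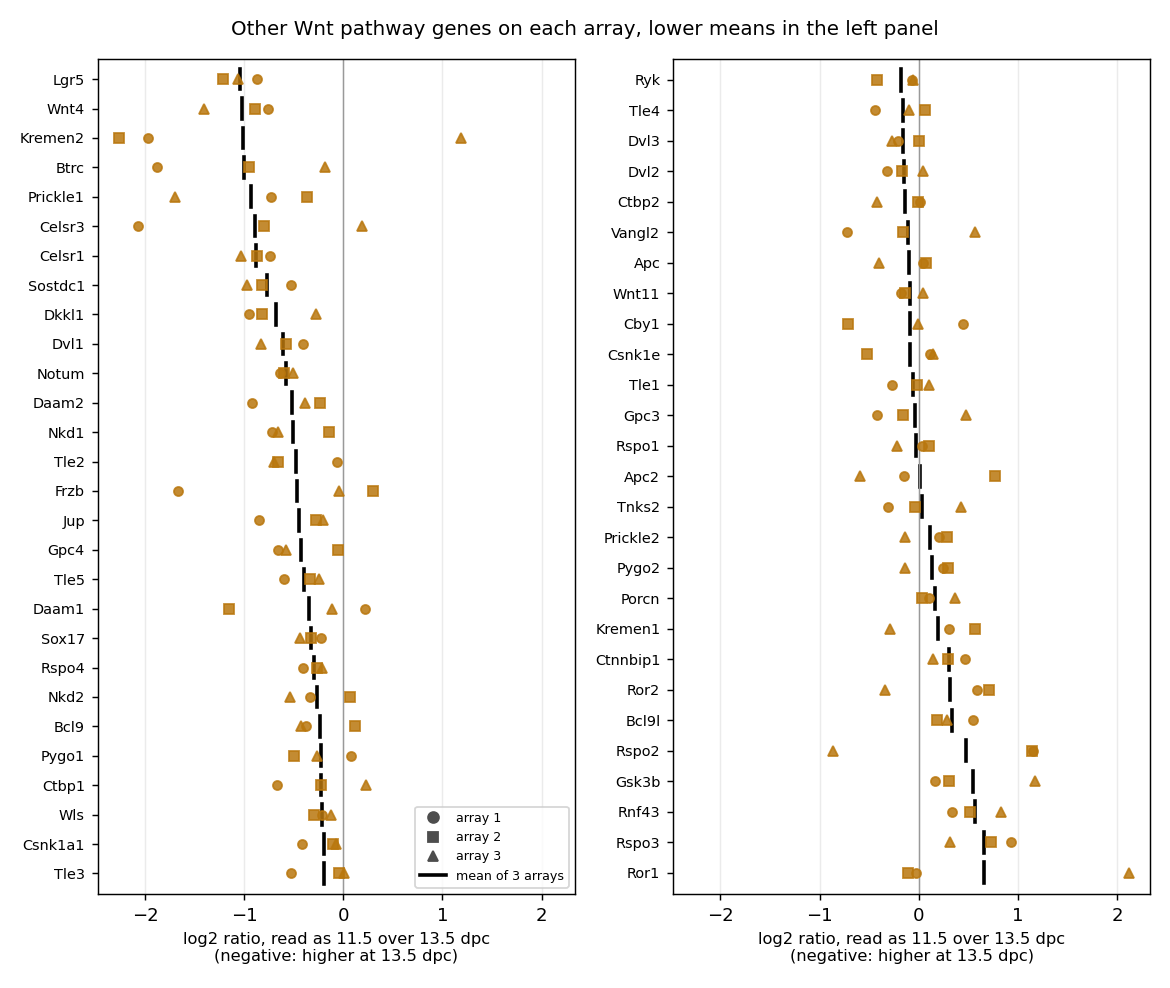
Log2 ratio of 55 other pathway genes on arrays 1 (circle), 2 (square) and 3 (triangle), with the mean as a black bar, ordered by mean from the top left; negative values are read as higher at 13.5 dpc. Lgr5, Celsr1, Sostdc1 and Notum have their 3 arrays close together left of 0, while Kremen2, Rspo2 and Ror1 have 1 array far from the others.

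Markers of cell types in or beside the kidney also had ratios away from 0. Of all rows, 18.5% were negative and 16.8% positive on every array. Endothelial markers were negative on all arrays for 7 of 9 genes (means from -0.83 to 0.063), neuron and neural crest markers for 4 of 8 (-1.10 to 0.84), and gonad and adrenal markers for 4 of 9 (-0.88 to 0.26). Red blood cell markers were positive on all arrays for 9 of 12 (-0.73 to 4.07). Kidney stroma markers were negative for 4 and positive for 4 of 9 (-0.48 to 1.80, the last being Pdgfrb with 0.39, 0.49 and 4.53 on arrays 1, 2 and 3), and kidney rudiment markers negative for 7 and positive for 3 of 15 (-0.85 to 0.72). No signal level was used, so a marker's absence could not be seen, and the part of these cell types in the Wnt gene ratios was not tested.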

How the data were processed

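The authors deposited 1 table of log2 ratios for 3 two-colour arrays. Base 2 was found from the values: of those between -3 and 2, 100% gave a ratio that was a whole multiple of 0.001, within 0.02 of that step (4.42% with base e). ImaGene 5.5 read the images, per the labels. The labels give 2 accounts of the normalisation, print-tip loess plus a step between arrays in R, and a Lowess fit over 20% of the data with a floor of 10 for the control channel. Which account applies to the table is not stated. No filter on signal was possible, and the number of arrays limits the precision.

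Of 22702 features, 883 controls or blanks were dropped. The platform annotation gave 1 symbol to 16656 gene features, several to 137 and none to 5026. The GRCm38.p6 gene table matched 15970 by Entrez identifier and renamed none. The 20386 features measured on every array were averaged by symbol, giving 19015 rows. The test of each mean ratio against 0 was limma 3.58.1 under R 4.3.3 (lmFit, then eBayes; two-sided; Benjamini-Hochberg adjustment over all rows), with arrays as deposited. It was tested on simulated data. The rule for the 40 genes uses no measured value, but it and the lists were written with earlier results of these data known. Values on each array are given for genes at an unadjusted p under 0.05, for 7 genes fixed by name, for genes with 2 features and for those of each class with the smallest p or widest spread. Others are named to complete a class or were chosen after their values were seen. Promoter sequences came from RefSeq. Figures were drawn with matplotlib 3.10.9.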

Additional observations from a re-analysis of the deposited data

How the results depend on the processing

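No paired analysis was possible because the ratio on each array already pairs both ages, which leaves no second group of arrays for a replicate block. Limma's adjusted threshold was passed by 0 of the 40 genes under every alternative run. Median, scale and quantile normalisation changed the sign of 0 of the 32 named genes. Single features and rows with values on 2 arrays left the count at an unadjusted p under 0.05 at 7.

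With array 3 turned, 1 gene was at an unadjusted p under 0.05 (0 negative, 1 positive) and 11 kept 1 sign on all arrays, 4 of them negative. Of all 19015 rows, 1252 were under 0.05 with array 3 turned, and the share keeping 1 sign was not counted. The medians were then 0.016 for the 40 genes, 0.085 for receptors and -0.093 for antagonists, and 3 other pathway genes were under 0.05. Means that changed sign were those of Wnt5a (0.048), Wnt6 (-0.025), Ctnnb1 (-0.13), Fzd5 (1.17), Fzd1 (0.21), Axin1 (0.20) and Prickle1 (0.20).

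Without 1 array, 3 of the 40 genes were under 0.05 each time (3 negative, 0 positive), Sfrp4 and Dkk1 among them. Of all 19015 rows, 736, 1020 and 2346 were under 0.05 without arrays 1, 2 and 3. Over these refits 23 to 28 genes kept 1 sign (8 to 13 positive) and 0 to 2 were at least 2-fold, fewer arrays having to meet the rule. The shares of all rows that did so were not counted. The ligand median ran from -0.062 to 0.053, that inside the cell from -0.085 to 0.069, and the count of other pathway genes from 4 to 12. Means ran from -0.12 to 0.28 for Wnt9b, -0.39 to 0.36 for Wnt2, -0.22 to 0.45 for Wnt2b, -0.95 to 0.74 for Fzd5, -0.73 to 0.064 for Dkk2 and -0.22 to 0.090 for Axin1.

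With a dye term, 7 genes were under 0.05 (6 negative, 1 positive), against 2669 of all 19015 rows. The medians were then -0.0087 (ligands) and -0.039 (inside the cell), and Wnt9b and Wnt2 had -0.034 and 0.058. Array weights gave Fzd5 0.22. The running median left 3 negative genes under 0.05, with Lrp5 and Tcf7l1 the positive ones. It gave medians of 0.0016 for the 40 genes and 0.13 for ligands, and means of 0.0069 for Fzd5 and 0.036 for Axin1. At 1.5-fold in place of 2-fold, 2 genes met the rule on every array, and at 3-fold 0, with the share of all rows not counted for either. The cause of these shifts was not tested.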
